A study of Mus musculus with 12 samples.

Results

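The globins measured here are the haemoglobin chain genes Hba-a1, Hba-a2, Hba-x, Hbb-b1, Hbb-bh1 and Hbb-y, with cytoglobin (Cygb) and myoglobin (Mb). They were found as all probes that carry any of these 8 symbols, of 27306 gene symbols on the array, which gave 10 of 56605 probes. The members were selected on measured values: Hba-a1 and Hba-a2 were among the largest differences between siBach1 and siControl cells at day 2, so the day 2 silencing values of all members are given as a description, without a test. The same holds for the change of Hba-a1 and Hba-a2 from day 0 to day 2 in siControl and in siBach1 cells, which rests on the same day 2 arrays.

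RNA came from C2C12 cells, a myoblast line derived from C3H mouse muscle that fuses into myotubes when confluent cultures are moved from bovine serum to low horse serum. All cells were transfected with an siRNA, either a negative control (siControl) or one against Bach1 (siBach1, which is siBach1-2 in the study's methods). Cells were collected at day 0, before induction, or at day 2 of differentiation, with 3 single-colour Agilent arrays for each of the 4 conditions. Nothing states whether the 3 replicates were separate cultures, so the p-values measure the spread between these 12 arrays, and only 1 siRNA against Bach1 is present. In bulk RNA, fewer cells of a type and less RNA per cell cannot be told apart.

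Globins are haem proteins that bind oxygen. The alpha chains (Hba-a1, Hba-a2) and beta chains (Hbb-b1) form adult haemoglobin in red cells, Hba-x, Hbb-y and Hbb-bh1 are chains of embryonic red cells, Mb holds oxygen in muscle, and Cygb is a widely expressed globin that also handles nitric oxide. Bach1 is a haem-binding repressor that pairs with small Maf proteins on Maf recognition elements, and globin genes and Hmox1 are known targets of it.

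Hba-a1 and Hba-a2 are near-identical copies in the same cluster, and their start regions are shown because the 3 probes of these genes kept the same order of conditions. RefSeq start-site windows on build GRCm38.p6 were matched for Hba-a1, Hba-a2, Hba-x, Hbb-y and Mb, not for Hbb-b1, Hbb-bh1 and Cygb. The last 150 bases before the start are printed 5′ to 3′ on the gene's strand for the alpha genes, at chr11:32283522-32283671 (Hba-a1, plus strand), chr11:32296342-32296491 (Hba-a2, plus strand) and chr11:32276450-32276599 (Hba-x, plus strand), and for Hbb-y at chr7:103853208-103853357 (minus strand), to set the expressed pair beside embryonic genes of the same family that stayed at background. Capitals mark the CCAAT box, the CACCC box (searched as CCACCC) and the core of the antioxidant element (searched as TGACNNNGC).
Hba-a1: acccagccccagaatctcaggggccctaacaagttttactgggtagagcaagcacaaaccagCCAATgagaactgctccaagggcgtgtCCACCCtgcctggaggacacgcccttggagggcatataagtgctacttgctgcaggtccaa
Hba-a2: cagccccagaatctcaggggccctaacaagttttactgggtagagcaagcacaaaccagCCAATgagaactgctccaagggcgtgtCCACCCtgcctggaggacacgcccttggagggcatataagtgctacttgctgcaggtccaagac
Hba-x: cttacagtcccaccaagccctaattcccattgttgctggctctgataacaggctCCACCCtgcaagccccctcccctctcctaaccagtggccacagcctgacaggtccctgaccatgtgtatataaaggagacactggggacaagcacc
Hbb-y: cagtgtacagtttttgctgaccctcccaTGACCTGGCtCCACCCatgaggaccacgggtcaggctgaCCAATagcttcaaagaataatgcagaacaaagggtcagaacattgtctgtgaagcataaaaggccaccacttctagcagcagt

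Over the 250 bases before each annotated start, the Hba-a1 and Hba-a2 sequences aligned without a mismatch over 247 bases (100% identical), and their annotated starts differ by the few bases left over. Hba-a1 was 56.4% identical to Hba-x over 225 aligned bases and 55.7% identical to Hbb-y over 183. The CCAAT lies at positions -88 to -84 of Hba-a1 and -91 to -87 of Hba-a2, and the CCACCC at -61 to -56 and -64 to -59, counted back from the start. Searched on both strands, CCAAT was present in 33.8% of all 32817 promoter windows and CCACCC in 28.1%, so neither is particular to these genes. The full palindromic Maf recognition element (0.00609% of windows) had no match before the start of Hba-a1 or Hba-a2. Nor had its core TGANTCA (6.75%), which lies inside the full element, the antioxidant core (10.2%) or the GATA motif AGATAA (9.99%). Other forms of the GATA motif were not searched, and the letters TGATAA occur in the windows of Hba-a1, Hba-a2 and Hba-x. The antioxidant core was found at -122 to -114 of Hbb-y and at -250 to -242 of Hba-x. It was also found in Mb, at -77 to -69 or -137 to -129, the same site counted from different annotated starts. These are matches of letters within these windows only.

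On the arrays, between 47.6% and 58.9% of probes were well above background, no spot was saturated, and the signal at the 75th percentile was between 326 and 534. Bach1 itself fell by 1.77 ± 0.11 (log2, SE) at day 0 and by 1.97 ± 0.11 at day 2 in siBach1 cells (limma, adjusted p = 1.23e-05 and 1.36e-05), and Hmox1, the haem-degrading enzyme that Bach1 represses, was 9.86-fold and 8.72-fold higher. Levels below are log2 of the processed signal with the 75th percentile of its array subtracted, so that a level of 0 is a signal at that percentile. Levels of different probes are not comparable with each other. Testing was limited to probes that passed the scanner's background flag ("well above background") on each array of some condition, and a probe was called where limma's Benjamini-Hochberg adjusted p over all 29664 tested probes was under 0.05 and the change at least 2-fold. Of the 10 member probes, 6 from 5 genes were tested (2 of Hba-a1 and 1 each of Hba-a2, Hbb-bh1, Mb and Cygb), and each of the 6 passed that flag on 12 of 12 arrays, so the filter did not favour a condition.

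The alpha-globin genes were expressed in every condition and were higher with siBach1 at both days. The brighter Hba-a1 probe, A_51_P169730, read 2.34, 2.33 and 2.35 in siControl cells at day 0 (replicates 1, 2 and 3) and 3.75, 3.73 and 3.72 in siBach1 cells at day 0. At day 2 it read 0.95, 0.76 and 1.29 in siControl cells and 4.73, 5.04 and 4.81 in siBach1 cells. The 4 conditions did not overlap, with siControl day 2 lowest and siBach1 day 2 highest. The share of all tested probes whose conditions did not overlap was 37.3% for silencing at day 0, 32.8% for silencing at day 2, 61.9% for differentiation in siControl cells and 61.3% in siBach1 cells. In processed signal these levels were 2044 to 2706 and 4289.9 to 6109 at day 0, and 654 to 846 and 11395 to 13872 at day 2, for siControl and siBach1 respectively. The Hba-a2 probe, A_55_P1962299, read 2.25, 2.23 and 2.23 in siControl and 3.65, 3.63 and 3.62 in siBach1 cells at day 0. Its day 2 levels were 0.84, 0.61 and 1.20 in siControl and 4.64, 4.95 and 4.75 in siBach1 cells. The order of the conditions was the same as for the Hba-a1 probe. The dimmer Hba-a1 probe, A_55_P1962303, read 0.80, 0.73 and 0.82 in siControl and 2.02, 2.13 and 1.97 in siBach1 cells at day 0. At day 2 it read -0.82, -0.97 and -0.26 in siControl and 3.03, 3.32 and 3.21 in siBach1 cells. The order was again the same, and siControl day 2 was the condition with the widest spread for all 3 probes, with replicate 3 the highest of its arrays.

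**Figure D1:**
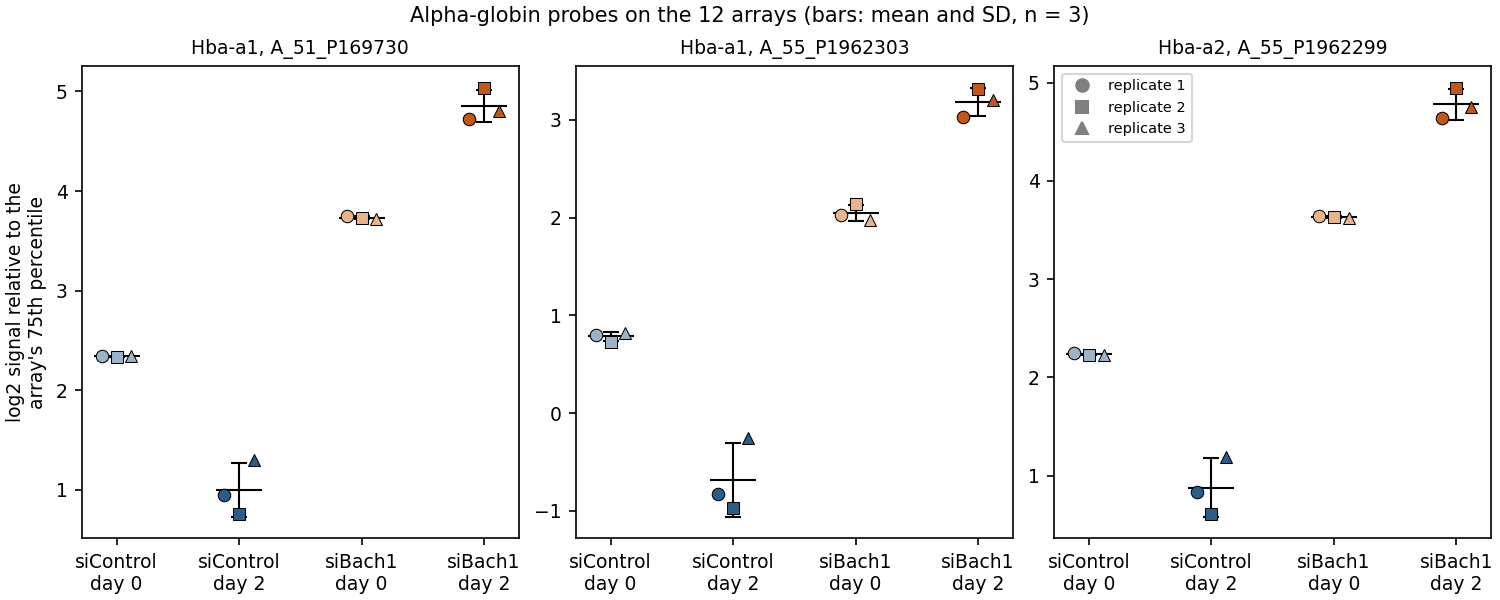
Levels of the 3 alpha-globin probes as log2 signal over each array's 75th percentile (y axis, a separate scale for each panel) in the 4 conditions (x axis). Symbols are single arrays by replicate number, and the bars show the mean and SD of 3 arrays. The order siControl day 2, siControl day 0, siBach1 day 0, siBach1 day 2 held for each probe without overlap.

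At day 0, before differentiation, the alpha globins rose with Bach1 silencing. The fold changes were 2.62 for A_51_P169730 and 2.39 for A_55_P1962303 of Hba-a1 and 2.64 for Hba-a2, and on the log2 scale 1.39 ± 0.13, 1.26 ± 0.16 and 1.40 ± 0.14 (SE, 3 arrays a condition), with limma adjusted p = 8.99e-05, 0.000582 and 0.000114. Thus 3 of the 6 tested member probes were called, all higher, where 2.79% of all tested probes were called in either direction and 0.809% higher. The difference between arrays of the same replicate number was between 1.37 and 1.41 for A_51_P169730, so that each replicate showed nearly the same step. Because the copies share most of their sequence, and the probe sequences are not used here, signals of Hba-a1 and Hba-a2 cannot be told apart, and the 3 probes are not 3 independent measurements.

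In siControl cells the alpha globins were lower at day 2 than at day 0. The log2 differences, given without a test, were -1.34 ± 0.13 and -1.47 ± 0.16 for the Hba-a1 probes and -1.36 ± 0.14 for Hba-a2 (SE), or 2.53-, 2.77- and 2.56-fold. In siBach1 cells the same probes were higher at day 2 than at day 0, by 1.13, 1.14 and 1.14 on the log2 scale for A_51_P169730, A_55_P1962303 and Hba-a2, in each of the 3 replicates. Of the 4469 probes of the whole array that were called in both differentiation comparisons, 3 went in opposite directions in siControl and siBach1 cells, and these were the 3 alpha-globin probes. That count is a description, since the genes were chosen for their difference between siBach1 and siControl cells at day 2, on which both changes rest. It also depends on the 2-fold limit, and opposite signs were not particular to the alpha globins. Mgst2 changed by -1.91 in siControl and 0.94 in siBach1 cells (log2), the latter just under that limit. Aox1 (-0.76 and 0.24) and Gm42151 (-0.58 and 0.48) also had opposite signs.

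At day 2 the difference between siBach1 and siControl cells was 14.5-fold for A_51_P169730, 14.6-fold for A_55_P1962303 and 14.9-fold for Hba-a2 (log2 3.86, 3.87 and 3.90). For comparison, 2.17% of all tested probes were called at day 2, and 1.52% were called higher. The log2 difference at day 2 exceeded that at day 0 by 2.47, 2.61 and 2.50 in the same order of probes, and by at least 2.14 in every replicate. On slide 1, which held replicates 1 and 2, the day 2 values were 4.03, 4.07 and 4.07, and on slide 2, which held replicate 3, they were 3.51, 3.46 and 3.55. Each condition had its own column on the slides, so a column's effect and that of its condition cannot be told apart.

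**Figure D2:**
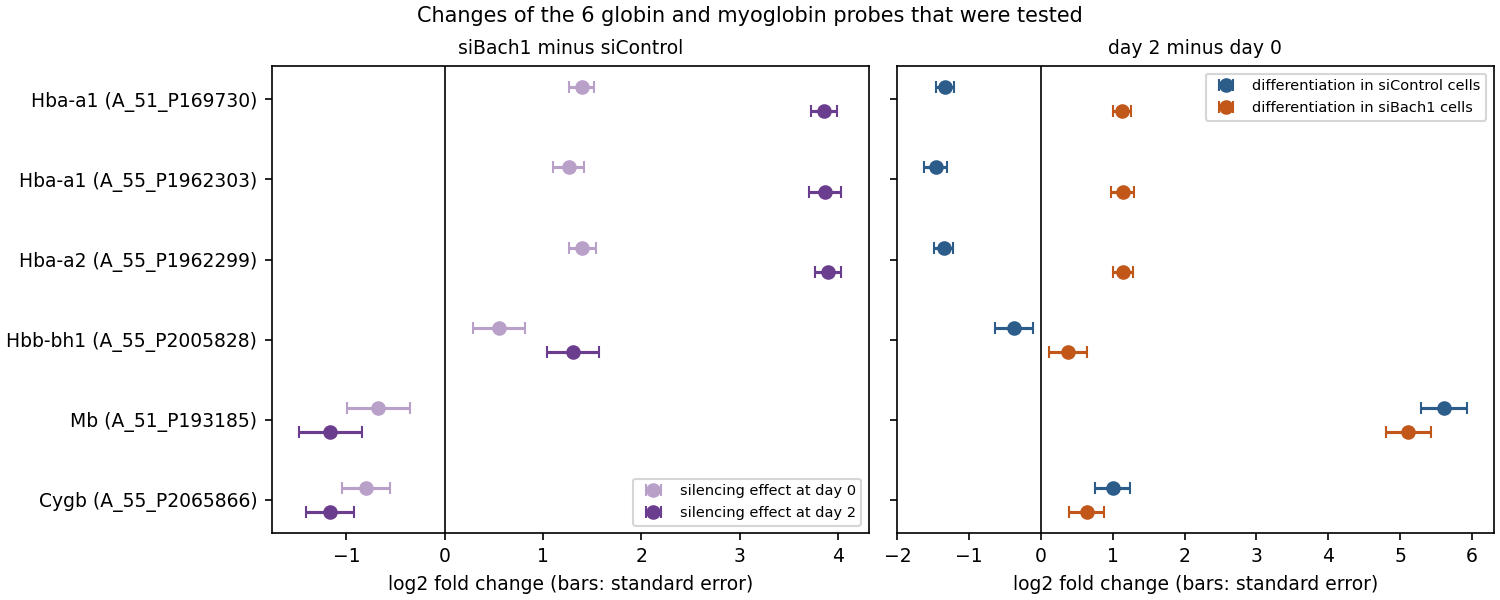
Log2 fold changes of the 6 tested globin and myoglobin probes, with bars for the standard error of the fit. The left panel shows siBach1 minus siControl at day 0 and day 2, and the right panel day 2 minus day 0 in siControl and siBach1 cells. The alpha-globin points of the right panel lie at -1.34 to -1.47 in siControl and 1.13 to 1.14 in siBach1 cells, and Mb lies above 5 in both.

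The beta-type globins were at or near background. Hbb-bh1, an embryonic beta chain, was measured on all 12 arrays by probe A_55_P2005828, at -3.14, -3.88 and -3.45 in siControl and -2.88, -3.18 and -2.76 in siBach1 cells at day 0. Its day 2 levels were -4.12, -3.51 and -3.98 in siControl and -2.60, -3.03 and -2.08 in siBach1 cells. The conditions overlapped at day 0 and not at day 2. Its log2 silencing difference at day 0 was 0.55 ± 0.27 and did not pass the test (limma adjusted p = 0.192), nor did its change with differentiation in siControl (-0.38 ± 0.27, adjusted p = 0.256) or siBach1 cells (0.37 ± 0.27, adjusted p = 0.267). At day 2 it was 1.30 higher in siBach1 cells (2.46-fold), and 0.45 higher where background was corrected with normexp in place of the scanner's processed signal. A second Hbb-bh1 probe, A_55_P2727614, was well above background on 4 arrays in 3 conditions, siBach1 day 2 replicates 1 and 2, siControl day 2 replicate 3 and siBach1 day 0 replicate 3, and was not tested.

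Hbb-b1, the adult beta chain that pairs with alpha chains in haemoglobin, was well above background on 1 array, siBach1 day 2 replicate 1, with a processed signal of 112.6. Its signals on the other 11 arrays were between 2.52 and 5.56, replicates 2 and 3 of the same condition included. Hba-x and Hbb-y, the embryonic zeta-type and epsilon-type chains, were well above background on none of the 12 arrays. Their signals were between 3.45 and 5.25 for Hba-x and between 2.77 and 5.81 for Hbb-y, in every condition.

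**Figure D3:**
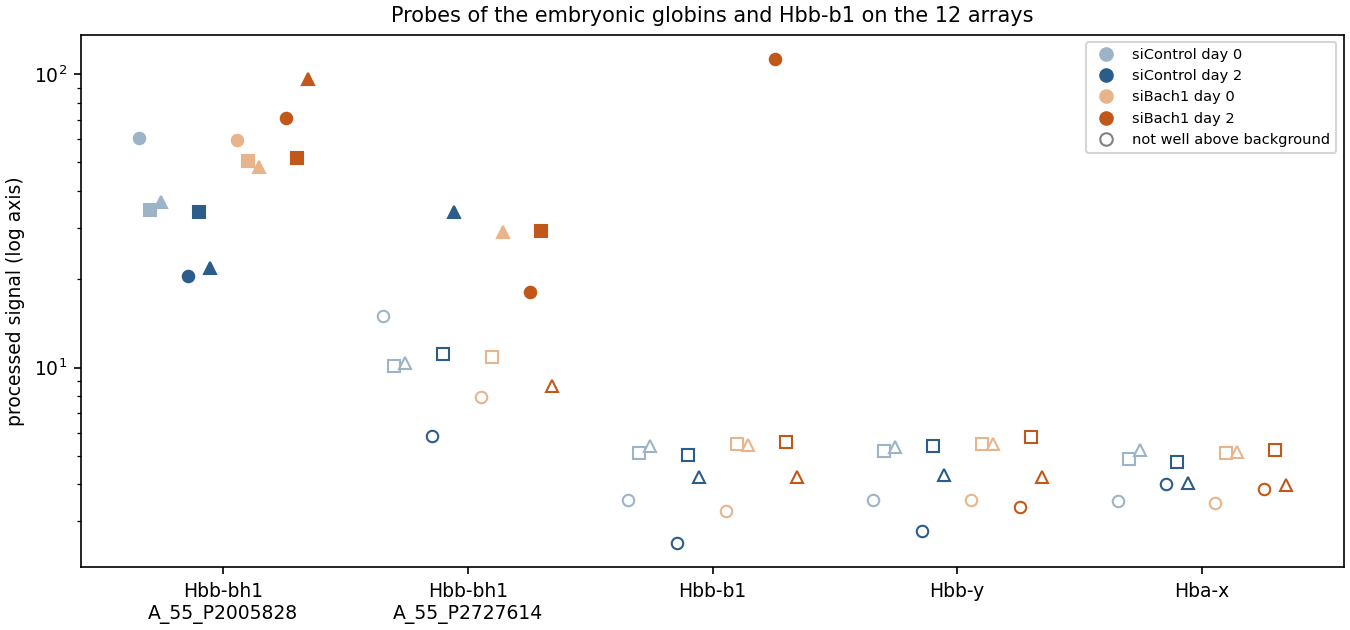
Processed signal on a log axis (y axis) of the 5 probes for Hbb-bh1, Hbb-b1, Hbb-y and Hba-x (x axis) on the 12 arrays, coloured by condition. Filled symbols were well above background and open symbols were not, and circles, squares and triangles are replicates 1, 2 and 3. The single filled Hbb-b1 symbol is siBach1 day 2 replicate 1, at 112.6.

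Globin genes outside the 8 members were little detected. Of 12 listed, 7 had a probe, and Hbb-b2, Hbb-bt, Hbb-bh2, Ngb (the globin of neurons) and Adgb were well above background on none of the 12 arrays. Hbq1a, a theta-type globin next to the alpha genes, was the only one that passed the background filter. It read 5.06, 4.27 and 15.8 in processed signal in siControl cells at day 0 and 3.14, 5.80 and 11.7 in siBach1 cells, none of them well above background. At day 2 it read 7.89, 15.2 and 24.8 in siControl cells and 22.6, 72.5 and 17.2 in siBach1 cells. The latter 3 and siControl replicate 3 (24.8) were well above background. In siBach1 cells it was at least 1.50-fold higher at day 2 than at day 0, the level of a probe below background being only a bound. It passed the background filter only through siBach1 day 2, the condition in which it was highest, so no test of it is given. The siBach1 and siControl arrays overlapped at day 2. Hbq1b was not tested and was well above background on 4 arrays, 1 in siControl and 2 in siBach1 at day 0 and 1 in siBach1 at day 2.

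Myoglobin, the oxygen store of muscle, was the member that rose most with differentiation. The Mb probe A_51_P193185 read -0.13, -1.25 and -0.63 in siControl and -0.88, -1.95 and -1.20 in siBach1 cells at day 0. At day 2 it read 5.15, 4.68 and 4.98 in siControl and 4.09, 3.63 and 3.60 in siBach1 cells. The 2 days were far apart for either siRNA, while siControl and siBach1 overlapped at day 0 and not at day 2. The rise was 48.7-fold in siControl cells (log2 5.61 ± 0.32, limma adjusted p = 3.48e-07) and 34.7-fold in siBach1 cells (5.12 ± 0.32, adjusted p = 6.34e-07). Of the 3 member probes tested for differentiation, those of Hbb-bh1, Mb and Cygb, Mb was the 1 called in siControl and in siBach1 cells, where 20% and 20.5% of all tested probes were called. At day 0 the silencing difference was -0.67 ± 0.32 and did not pass the test (adjusted p = 0.181), although it was below 0 in each replicate, between -0.76 and -0.57. With the replicate number as a block, the same difference passed on adjusted p (limma adjusted p = 0.0168) but stayed under 2-fold. At day 2 Mb was 2.24-fold lower in siBach1 cells (log2 -1.16, between -1.38 and -1.05 over the replicates).

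Muscle cell markers moved with Mb. Of 15 tested markers 13 rose at least 2-fold in siControl cells by day 2 and 13 in siBach1 cells, where 21.5% and 21.8% of all tested genes were called in either direction, with medians of 4.52 and 3.77 against 0.01 and -0.06 over all tested genes. Ckm, the muscle creatine kinase, rose 107.6-fold in siControl and 109.8-fold in siBach1 cells, and Myog, a myogenic transcription factor, 28.8- and 13.6-fold (limma adjusted p between 2.01e-08 and 3.63e-07). At day 2 the median silencing difference of the markers was -0.48 against -0.03 over all tested genes, and 2 of 15 fell at least 2-fold with silencing, where 2.56% of all tested genes were called, the myosin heavy chains Myh1 (-1.19 ± 0.30, adjusted p = 0.0296) and Myh8 (-1.01 ± 0.27, adjusted p = 0.0402). The summed level of 16 markers, in multiples of the 75th percentile, was 2468 to 2648 in siControl and 1626 to 1911 in siBach1 cells at day 2, and 117 to 151 and 114 to 149 at day 0. The part of the markers in the Mb difference was not tested.

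**Figure D4:**
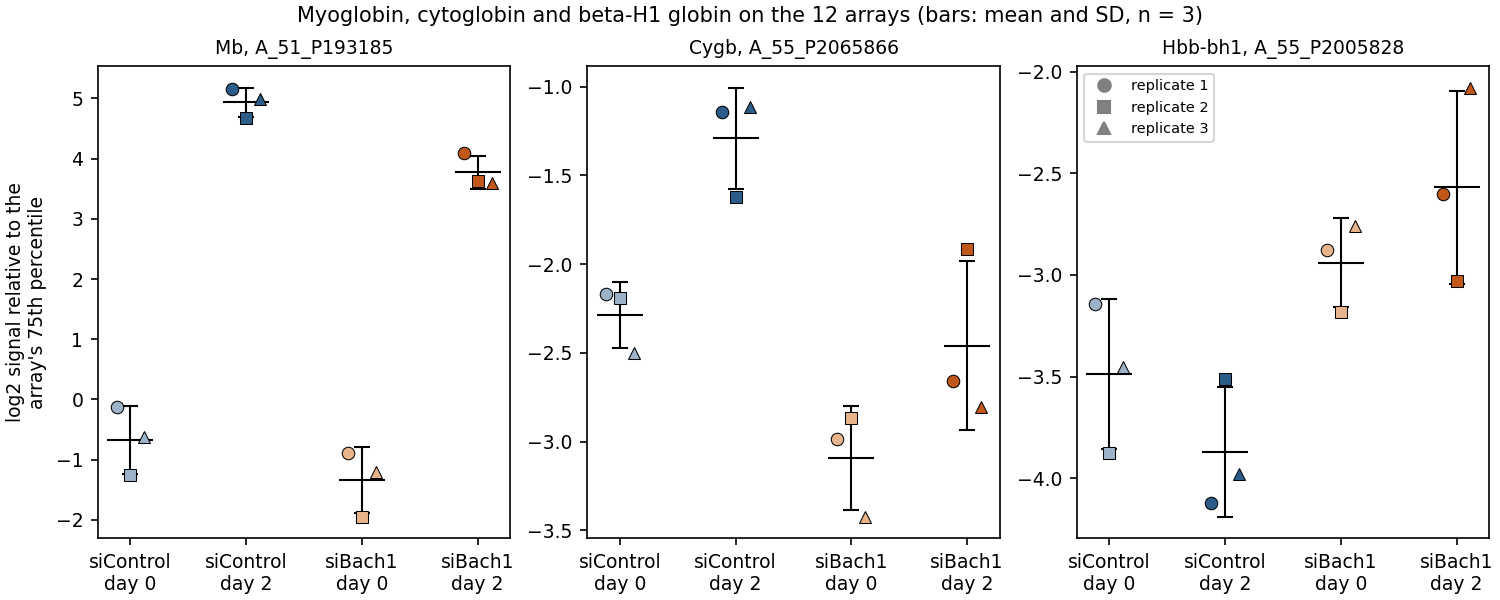
Levels of Mb, Cygb and Hbb-bh1 as log2 signal over each array's 75th percentile (y axis, a separate scale for each panel) in the 4 conditions (x axis). Symbols are single arrays by replicate number, and bars show the mean and SD of 3 arrays. Mb separates by day, and at day 2 siBach1 cells lie below siControl cells for Mb and Cygb and above them for Hbb-bh1.

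Among 28 regulators of Mb and genes of oxidative muscle, all tested, 19 rose and 2 fell in siControl cells and 20 rose and 1 fell in siBach1 cells by day 2, with medians of 2.12 and 2.60. Over all tested genes, 21.5% and 21.8% were called in either direction. Examples are Cox6a2, a muscle subunit of cytochrome oxidase, with a 103.0-fold rise in siControl and 77.8-fold in siBach1 cells, and Mef2c, a muscle transcription factor, with rises of 9.97- and 13.4-fold. With silencing at day 2, 3 of the 28 rose and 1 fell, where 2.56% of all tested genes were called (3.14% at day 0). Nfatc2, a calcineurin-regulated factor, was at least 3.84-fold higher, Ppargc1a, a coactivator of mitochondrial genes, 2.19-fold and Cox8b, another cytochrome oxidase subunit, 2.15-fold (limma adjusted p = 3.03e-05, 0.00326 and 0.0121). Myl2, a slow myosin light chain, fell 4.08-fold (adjusted p = 0.00838). The median over the list was -0.02. At day 0 Nfatc2 alone was called, 3.99-fold higher (adjusted p = 3.51e-05).

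Cytoglobin was lower with silencing at both days. The Cygb probe A_55_P2065866 read -2.17, -2.19 and -2.50 in siControl and -2.99, -2.87 and -3.42 in siBach1 cells at day 0. At day 2 it read -1.14, -1.62 and -1.11 in siControl and -2.66, -1.91 and -2.81 in siBach1 cells. The siBach1 arrays lay below the siControl arrays at both days without overlap, and siBach1 day 2 overlapped siControl day 0. The day 0 difference was -0.81 ± 0.24 (1.75-fold) with limma adjusted p = 0.0477, under 2-fold and close to the limit, where 17.1% of all tested probes passed on adjusted p alone (53.4% and 56.1% for differentiation in siControl and siBach1 cells). It passed in the fits without siControl day 2 replicate 2, siBach1 day 2 replicate 2 or siBach1 day 2 replicate 3, and failed in the 9 fits without any other single array (adjusted p up to 0.159), and was -0.32 with normexp background (adjusted p = 0.0949). At day 2 Cygb was 2.25-fold lower in siBach1 cells (log2 -1.17, between -1.69 and -0.29 over the replicates). With differentiation Cygb rose 1.99-fold in siControl cells (1.00 ± 0.24, adjusted p = 0.00571), just under the 2-fold limit. In siBach1 cells the rise was 1.55-fold (0.63 ± 0.24, adjusted p = 0.0479), which passed without siControl day 2 replicate 2, siBach1 day 0 replicate 2 or siBach1 day 2 replicate 3, failed in the 9 fits without any other single array (adjusted p up to 0.181) and was 0.20 with normexp background (adjusted p = 0.198).

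Further lists hold the settings in which Mb and Cygb are usually discussed. None of 20 tested hypoxia response genes and none of 15 tested genes of nitric oxide and radical handling were called for silencing at either day. Over all tested genes, 1 probe a gene, 3.14% were called at day 0 and 2.56% at day 2, and 20% and 13.8% passed on adjusted p alone. On adjusted p alone 2 and 4 of the hypoxia genes passed at day 0 and day 2, and 2 and 2 of the nitric oxide and radical genes. With differentiation, 1 of the 20 hypoxia genes was called higher and 2 lower in siControl cells, and 0 higher and 2 lower in siBach1 cells. Of the 15 nitric oxide and radical genes, 1 was called higher and 2 lower under either siRNA. Over all tested genes, 21.5% and 21.8% were called in either direction in siControl and siBach1 cells. In siControl cells, Adm, a vasodilator peptide, rose 4.79-fold (limma adjusted p = 4.13e-06) from a level well above background on 2 of 3 arrays. Nqo1, a quinone reductase, fell 15.9-fold there (limma adjusted p = 5.99e-08).

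Red cell markers were detected in part, and few of those tested were called for silencing. Of 16 red cell markers with a probe, 6 were well above background on none of the 12 arrays: Alas2, the red cell enzyme that starts haem synthesis, Ahsp, the chaperone of alpha globin, and Rhag, Kel, Trim10 and Cldn13. Hemgn, Tspan33, Ermap, Epor, Car1 and Car2 passed the flag on 12 arrays, and the summed level of the list, 72.8 to 77.4 in siControl and 81.3 to 90.2 in siBach1 cells at day 0 and 44.8 to 59.4 and 49.5 to 60.7 at day 2, was lower at day 2 for either siRNA. That sum rests mostly on Hemgn, whose brightest probe read 11347 to 32730 in processed signal over the 12 arrays. Tspan33 was next, at 2736 to 6847, so the sum says little of the other markers. Of 8 tested markers, 1 rose with silencing at day 2, the blood group protein Rhd (2.16-fold, limma adjusted p = 0.00987). Over all tested genes, 2.56% were called at day 2 and 3.14% at day 0. The median over the 8 was 0.16 at day 2 and 0.18 at day 0, when none was called, against -0.03 and 0.08 over all tested genes. The silencing difference was above 0 for 7 of the 8 at day 2 and for 5 at day 0. On adjusted p alone 2 passed at day 2 and 1 at day 0, where 13.8% and 20% of all tested genes did.

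Genes linked to the control of globin genes in red cells, activators and repressors among them, were detected in part. Of 17 such genes, 8 were well above background on all 12 arrays (Ldb1, Zfpm1, Hbs1l, Zbtb7a, Kdm1a, Nr2f2, Nr2c1 and Nr2c2), 5 on some, and 4 on none (the activators Gata1 and Tal1 and the repressors Gfi1b and Sox6). Bcl11a, another repressor, was well above background on 1 array. Klf1, the factor that binds the CACCC box, was well above background on 11 arrays and differed between siBach1 and siControl cells by -0.45 ± 0.40 at day 0 and -0.50 ± 0.40 at day 2 (limma adjusted p = 0.492 and 0.474). Of 12 tested genes of this list none was called for silencing at day 2, where 2.56% of all tested genes were (3.14% at day 0), and the median was -0.03. At day 0 the 1 factor called was Myb, a progenitor factor, lower with silencing. Its probe passed the background filter only through siControl day 0, the condition in which it was highest, and was well above background on 1 of the 3 siBach1 day 0 arrays, so no fold or test of it is given. Nfe2, which shares binding elements with Bach1, rose at least 1.71-fold by day 2 in siBach1 cells (adjusted p = 0.000854), in which it was below background on all 3 arrays at day 0. The change of Nfe2 in siControl cells was 0.28 ± 0.25 (adjusted p = 0.382).

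**Figure D5:**
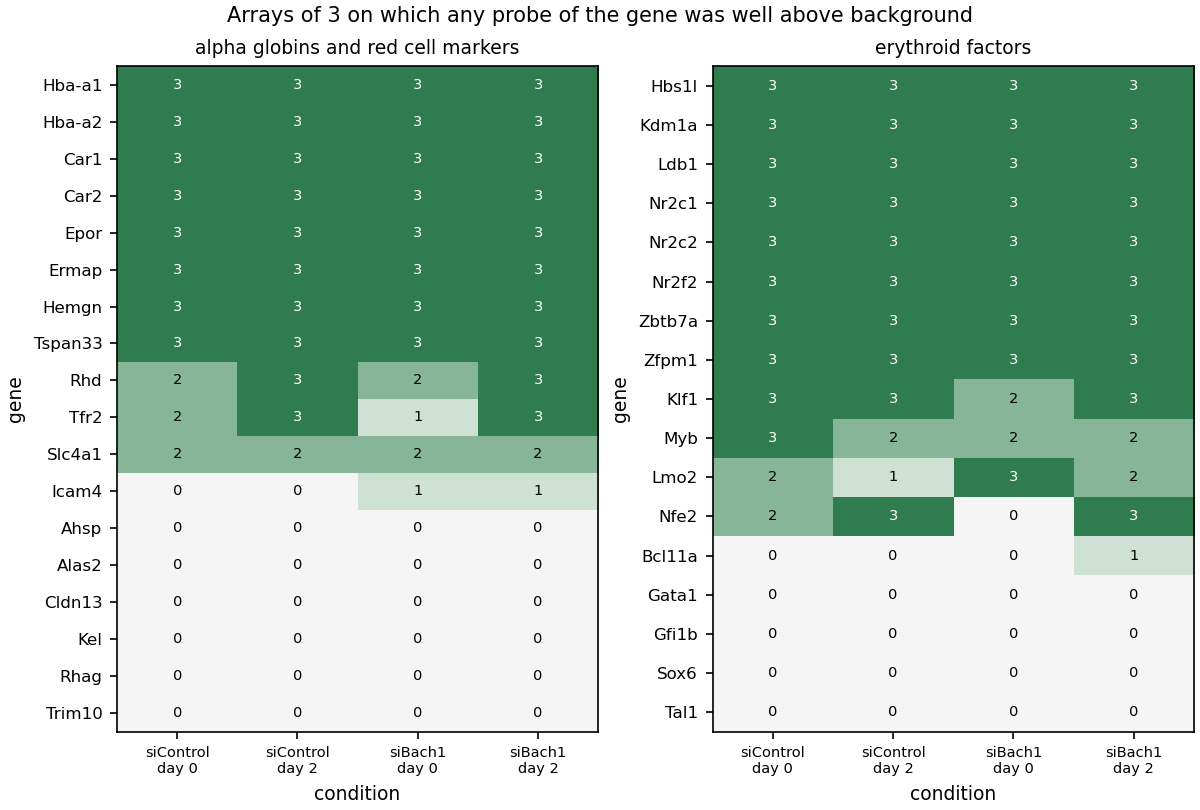
Number of arrays, of 3 in each condition (x axis), on which any probe of a gene (y axis) was well above background, for Hba-a1, Hba-a2 and the red cell markers (left) and for erythroid factors (right). The alpha globins were above background on every array, while Alas2, Ahsp, Rhag, Kel, Trim10, Cldn13, Gata1, Tal1, Gfi1b and Sox6 were above it on none.

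Markers of other blood-related cells were also detected in part. Of 10 macrophage and leucocyte markers, Adgre1, Aif1 and Fcgr1 were well above background on none of the 12 arrays, and 5 to 7 were on each array. Their summed level was 19.1 to 22.5 in siControl and 19.7 to 21.9 in siBach1 cells at day 0, and 26.3 to 34.5 and 21.95 to 33.1 at day 2. Of 10 endothelial markers, Cdh5, Kdr, Tek, Tie1, Emcn and Erg were well above background on no array, and 1 to 4 were on each array, with a summed level of 0.791 to 0.984 in siControl and 0.966 to 1.20 in siBach1 cells at day 2. Of 8 megakaryocyte markers, Gp1ba, Gp9 and Pf4 were on no array and 2 to 5 were on each, with a summed level of 3.69 to 4.52 in siControl and 2.99 to 3.57 in siBach1 cells at day 2. With silencing at day 2, none of 5 tested macrophage and leucocyte markers was called, where 2.56% of all tested genes were. The endothelial marker called higher was Cldn5, a tight junction protein, whose probe passed the background filter only through siBach1 day 2, so no fold or test of it is given. Of 3 tested megakaryocyte markers 1 was called higher, the platelet chemokine Ppbp. It was well above background on 1 of 3 siBach1 arrays and no siControl array at day 2, so no fold or test of it is given. The part of these cells in the alpha-globin levels was not tested.

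No gene of haem synthesis was called higher with silencing. All 18 haem synthesis and transport genes with a probe were tested. With silencing 1 was called at day 0, Tmem14c, a mitochondrial protein needed for haem synthesis in red cells, which fell 2.13-fold (limma adjusted p = 1.55e-05), and none at day 2. Over all tested genes, 3.14% were called at day 0 and 2.56% at day 2. On adjusted p alone 8 of the 18 passed at day 0 and 4 at day 2, where 20% and 13.8% of all tested genes did. With differentiation Alad, an enzyme of the pathway, and Slc48a1, a haem transporter, fell at least 2-fold in siControl and in siBach1 cells, by 2.02- and 3.73-fold and by 2.08- and 3.12-fold. They were the 2 of 18 called in each comparison, where 21.5% and 21.8% of all tested genes were called. Of 9 tested genes of haem breakdown and haemoglobin scavenging, 2 rose with silencing at both days, Hmox1 and the iron exporter Slc40a1 (3.75-fold at day 0 and 2.66-fold at day 2, adjusted p = 0.000359 and 0.00388). The levels of Hmox1 in siBach1 cells were 6.81 at day 0 and 6.10 at day 2, a fall of 0.71 from day 0 to day 2 (log2 -0.71 ± 0.14, limma adjusted p = 0.00166).

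Tested genes next to the alpha globins on the chromosome differed by less than 2-fold with silencing at either day, Hbq1a described above aside. Nprl3, whose introns hold known alpha-globin enhancers, differed by 0.24 at day 0 and 0.46 at day 2 between siBach1 and siControl cells (limma adjusted p = 0.0985 and 0.00946), under 2-fold. Mpg, a DNA repair glycosylase, was lower by 0.93 and 0.75 (log2 -0.93 and -0.75, adjusted p = 0.00049 and 0.00333), the opposite sign. Rhbdf1, Snrnp25, Sh3pxd2b and Ubtd2 did not pass the test for silencing at either day, with values between -0.41 and 0.18. Around the beta-type genes no neighbour was tested. Next to Cygb, the kinase gene Sphk1 was lower with silencing at both days, as Cygb was (-0.50 at each, adjusted p = 0.00527 and 0.00861), and rose 1.15 with differentiation under either siRNA. The other tested Cygb neighbours, Rhbdf2, Aanat, Ube2o and St6galnac2, did not pass for silencing. Next to Mb, 1110038F14Rik differed by -0.27 at day 2 (adjusted p = 0.0298), and Rbfox2 and 1700109K24Rik did not pass for silencing.

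The genes whose levels followed each member most closely were named by Pearson's r over the 12 arrays, which fall into 4 conditions, so that r mainly reflects the condition means. They were picked on these same arrays, so a direction that they share with the member is a description and no separate result. For the Hba-a1 probe A_51_P169730 these were Gm42151 (r = 0.97), Mgst2 (0.97), Setd3 (0.95), Aox1 (0.95) and Opn1sw (0.95), of which Opn1sw was well above background on 10 of the 12 arrays and the others on all 12. Of these Mgst2, a microsomal glutathione transferase, had changes of a like size, with log2 differences of 1.39 for silencing at day 0, -1.91 and 0.94 for differentiation in siControl and siBach1 cells, and 4.23 for silencing at day 2. Setd3 had the same order of conditions over a range of 0.32. For Mb the closest were Myh8 (r = 1.00), C1qtnf3, Cpq, Murc and Selm (0.99 each, C1qtnf3 1.00), which were 0.41 to 1.01 lower with silencing at day 2. For Cygb they were Lbx1 (0.97), Gngt2 (0.96), Nptx1 (0.94), Plcg2 (0.94) and Pald1 (0.94), and all 5 were lower with silencing at both days, with falls of 0.46 to 1.13 at day 0 and 0.62 to 1.50 at day 2. Nptx1 was well above background on 5 of the 12 arrays, and the other 4 genes on all 12.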

How the data were processed

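RNA was measured on 12 single-colour Agilent mouse arrays. The authors scanned them and deposited Feature Extraction files (version 10.7.3.1 in the file headers, 9.1 in the submitters' processing notes) whose processed signal is an intensity with the background already subtracted. They also deposited a table of log2 values, relative to the 75th percentile and to each probe's median, which served as an alternative. Control and outlier spots were removed, repeated spots averaged, log2 taken and the array's 75th percentile subtracted. The scanner files name build mm9, so coordinates come only from RefSeq's start-site table (GRCm38.p6).

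All comparisons came from 1 fit of the 4 conditions in limma 3.58.1 (R 4.3.3), without a block. Processing used Python 3.11.15, pandas 2.3.3, numpy 2.4.6 and matplotlib 3.10.9. The fitting code was tested on simulated data. Deviations of same-numbered arrays of different conditions correlated in all 18 pairs (r 0.142 to 0.595). For differently numbered arrays r was -0.443 to 0.265. Same-numbered arrays also share a slide and a row on it, so a shared replicate and a shared position cannot be told apart.

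Alternatives were quantile normalization, normexp background (offset 50), the authors' values, no filter on dim probes, replicate or slide as a block, single slides, only the compared arrays, the methods' t-test (not the test of any result), adjusted p alone and each array left out. Named genes were all member probes, called genes of 13 lists (up to 4 a list), the nearest 5 annotated genes on either side, the 5 genes most correlated with Hba-a1, Mb and Cygb, and Bach1. For genes with several probes the brightest tested one was used. Members and lists were chosen with earlier results of these data known. Some genes of the lists are not reported here and are not in the lists' counts.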

Additional observations from a re-analysis of the deposited data

Results flagged for a closer look

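The change from day 0 to day 2 differed in direction between siControl and siBach1 cells for the alpha globins, with every siControl replicate lower and every siBach1 replicate higher at day 2. The difference between the 2 changes was 2.47 for the Hba-a1 probe A_51_P169730, 2.61 for the Hba-a1 probe A_55_P1962303 and 2.50 for Hba-a2 (log2), and it was not tested, because these genes were chosen for their difference at day 2.

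Hbb-b1 gave a processed signal of 112.6 on 1 array, siBach1 day 2 replicate 1, against 2.52 to 5.56 on the other 11, and none of the 3 siControl day 2 arrays was well above background. Its cause was not tested.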

How the results depend on the processing

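No member's change was reversed by any of the alternatives run. The 3 alpha-globin probes passed in all fits with a test for silencing at day 0 (log2 1.15 to 1.41 over alternatives), and Mb did for differentiation (5.27 to 5.88 in siControl and 4.64 to 5.35 in siBach1 cells). With the replicate block Mb at day 0 passed on adjusted p (-0.67, limma adjusted p = 0.0168) but stayed under 2-fold, and the block changed no member's call. Cygb no longer passed for silencing at day 0 in 13 of 23 alternatives (log2 -0.92 to -0.32 over all 23) and for its rise in siBach1 cells in 16 of 23 (0.20 to 0.81), always in the same direction. The values nearest 0 came with normexp, which also adds the offset, and the cause was not tested.

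Over all tested probes, 828, 5922, 6086 and 645 were called for silencing at day 0, differentiation in siControl cells, differentiation in siBach1 cells and silencing at day 2. Normexp background gave 339, 3562, 3583 and 221, adjusted p alone 5079, 15836, 16637 and 3563, and the methods' t-test after Benjamini-Hochberg 274 for silencing at day 2. On adjusted p alone, 4 member probes passed for silencing at day 0, and 2 in place of 1 for differentiation in siControl and in siBach1 cells. In fits without 1 array, 1 to 2 were called in siControl cells, the second being Cygb, which passed 2-fold without siControl day 0 replicate 1 or 2 or siControl day 2 replicate 2 (log2 up to 1.16). Slide 2 holds 1 array a condition and gives values with no test. The number of arrays, 3 a condition, limits the precision, and probes below background give no level.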
